A study of Mus musculus with 12 samples.

Results

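Eicosanoids are short-lived lipid mediators made from arachidonic acid, and the 10 genes described here encode the main enzymes of their synthesis together with 1 accessory membrane protein: Pla2g4a, Ptgs1, Ptgs2, Ptges, Ptges3, Tbxas1, Alox5, Alox5ap, Lta4h and Ltc4s. They were chosen by symbol from a table of 28987 mouse genes, all 10 were found in it, and their values were read in all 12 RNA-seq libraries. The libraries held sorted neutrophils of FVB mice, taken from bone marrow (BM) and peritoneum (PT) after an intraperitoneal injection of 2 mL thioglycollate, a sterile irritant that draws neutrophils into the cavity. Both compartments were sampled in wild-type (WT) mice and in MRP8-Bcl2 mice, in which the MRP8 promoter drives human Bcl-2 in myeloid cells and protects neutrophils from cell death, with 3 libraries in each of the groups BM WT, BM Bcl2, PT WT and PT Bcl2. All 4 groups came from injected mice, so no group shows resting bone marrow. The labels place collection at 6 h, whereas the study's methods give other times. The labels also name macrophages as the source, whereas the methods and the deposited design text name neutrophils. According to the study's methods, both compartments of a mouse were sampled, so BM and PT libraries may share mice. The deposited values do not tie a BM library to a PT library, and the tests treat all 12 as independent. The age of the mice and any pooling were not given in the sources used here, and the p-values measure the spread between these libraries only.

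The pathway starts with cytosolic phospholipase A2, the product of Pla2g4a, which releases arachidonic acid from membranes. From there the acid can enter either of 2 arms. In the cyclooxygenase arm, Ptgs1 (COX-1, usually constitutive) or Ptgs2 (COX-2, usually induced by inflammatory stimuli) makes prostaglandin H2, which Ptges and Ptges3 convert to prostaglandin E2 and Tbxas1 to thromboxane A2. In the lipoxygenase arm, Alox5 acts with the membrane protein Alox5ap to make leukotriene A4, which Lta4h hydrolyses to leukotriene B4, a strong neutrophil attractant, and Ltc4s conjugates with glutathione to give leukotriene C4. Neutrophils are known for the lipoxygenase arm and for leukotriene B4.

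Values are TPM, a gene's share of the transcripts of a library corrected for transcript length, so levels of different genes can be set side by side. Fold changes are on the scale of log2(TPM + 1), which understates changes of genes with low TPM. The value of 1 read, estimated from the spacing of low values, was 0.346 to 1.62 TPM on a transcript of 1000 nt and was lowest, that is, depth was greatest, in library 10 of PT WT and library 6 of BM WT. A value of 0 means that the table lists 0, not that the gene was off. Library 9, labelled PT Bcl2, had mouse Bcl2 at 0.695 TPM, within the 0.219 to 2.37 TPM of the WT libraries, while the other 5 MRP8-Bcl2 libraries had 58.6 to 333 TPM. Results for PT Bcl2 are therefore given with and without it where it matters. Of the 9 neutrophil markers, 8 were above 0 in every library, and Ly6g was at 51.5 to 1266 TPM in BM, at 58.9 to 126 TPM in PT Bcl2 and at 13.1, 14.9 and 0 TPM in PT WT. Cxcr2 was at 212 to 1864 TPM in BM and at 1290 to 3914 TPM in PT, and Csf3r at 132 to 1038 and at 1839 to 4569 TPM. The summed TPM of the 9 neutrophil markers, mostly S100a8 and S100a9, was 77034 to 351331 in BM and 15201 to 70169 in PT. The 12 monocyte and macrophage markers summed to 30.5 to 267 TPM in BM and to 26.0 to 147 TPM in PT. Single markers moved in different directions under that sum. Ccr2 was at 17.4 to 213 TPM in BM and at 4.47 to 13.7 TPM in PT Bcl2. Adgre1 was at 11.7 to 14.7 TPM in PT WT and at 0 to 6.94 TPM in BM WT, with overlap in MRP8-Bcl2. Vsig4 was at 0.677 to 18.05 TPM in PT and at 0 to 1.01 TPM in BM, while C1qb and C1qc overlapped. In bulk RNA, fewer cells of a type and less RNA per cell cannot be told apart.

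In PT neutrophils, the genes of leukotriene B4 synthesis took a smaller share of the RNA than in BM, Ptgs1 was lower and Ptgs2 was higher. Alox5, Alox5ap, Lta4h and Ptgs1 were lower in all 6 PT libraries than in all 6 BM libraries, and Ptgs2 was higher in all 6. Tbxas1 was also higher in PT in WT without overlap, while Ptges and Ptges3 overlapped in both genotypes. Ltc4s was above 0 only in PT WT. Calls required a Benjamini-Hochberg adjusted p under 0.05 in limma, over 13456 tested genes and with all 12 libraries in 1 fit, and at least a 2-fold change. All 10 genes passed the expression filter of 1 TPM in 3 libraries, and Ltc4s did so only through the group where it was high.

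In WT, none of the 10 genes was called lower in PT than in BM, against 1.22% of all tested genes, and 1 was called higher, against 1.59%. That 1 was Ltc4s, which had to differ to pass the filter, so nothing is read from its call. In the same comparison 7 of the 10, Ltc4s among them, had an unadjusted p under 0.05, as did 2223 of the 13456 tested genes. In MRP8-Bcl2, 5 were called lower, against 19.1% of all genes, and none higher, against 2.31%. That split depended on scaling: with each library centred on its own median, or with quantile normalization, 2 of the 10 were called lower and 2 higher in MRP8-Bcl2. The median log2 change of the 10 genes was -0.23 in WT and -1.64 in MRP8-Bcl2, beside medians over all tested genes of 0.22 and -1.02. A contrast added after the data were seen, the mean of the changes in both genotypes, called 4 of the genes lower (14.1% of all genes) and 3 higher (5.13%). Without any test, 3 genes were higher and 4 lower in PT WT than in BM WT without overlap, against 14.9% and 7.97% of all genes. Ltc4s was 1 of the 3 higher genes in both of these counts. It passed the filter only through PT WT, so nothing is read from its place there. In MRP8-Bcl2, 1 gene was higher and 5 lower without overlap, against 5.18% and 32.6%. Over all 6 PT and all 6 BM libraries, 1 gene was higher and 4 were lower without overlap, against 2.58% and 4.46% of all genes.

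**Figure D1:**
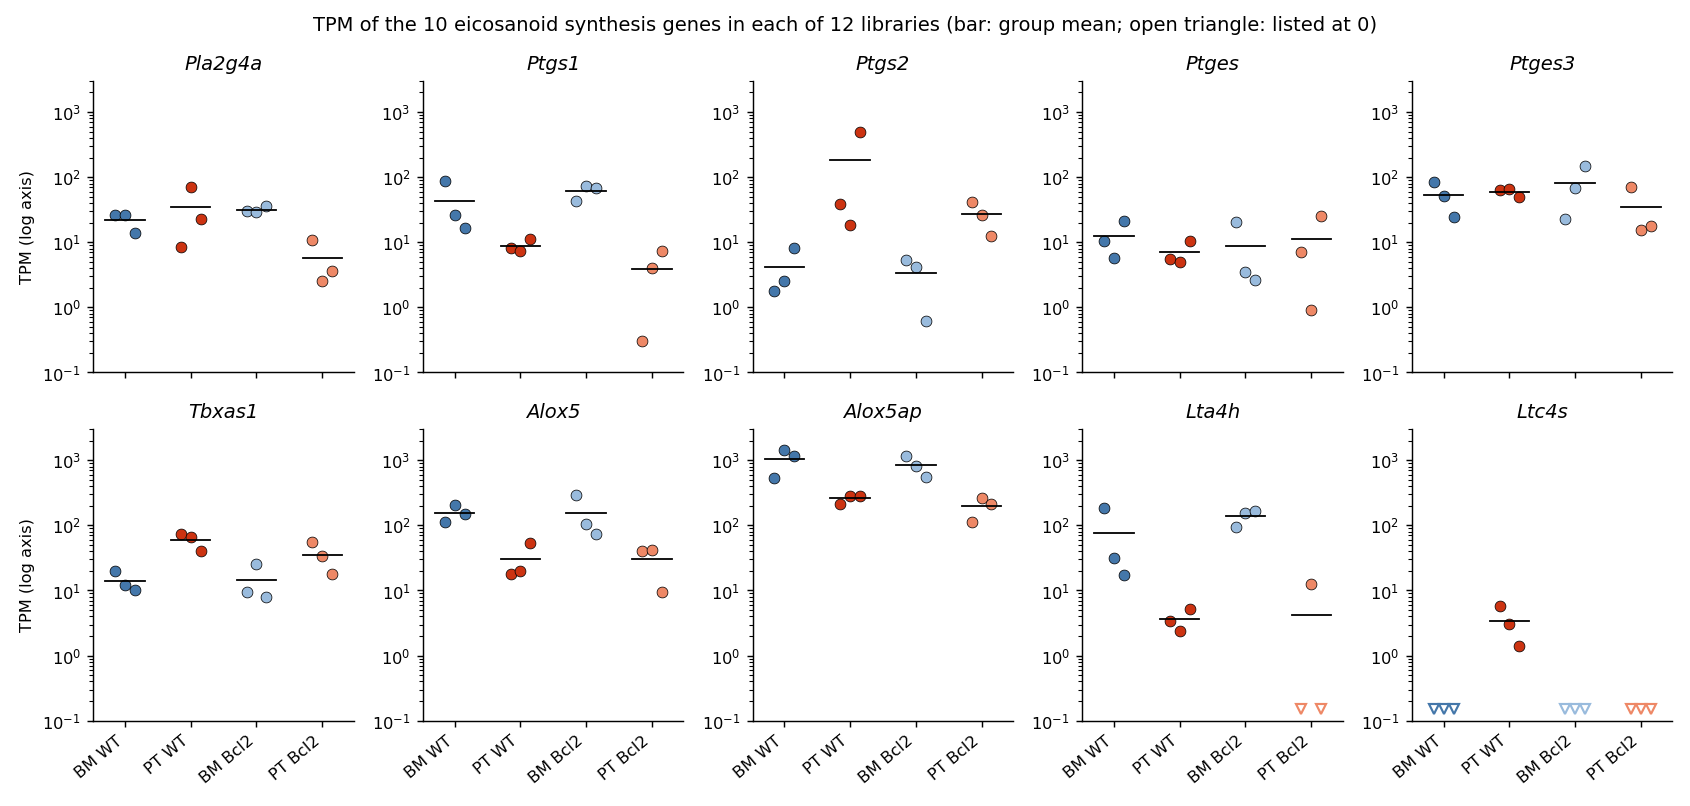
TPM of each gene (log axis) in each of the 12 libraries, by group. Points are libraries, bars are group means and open triangles are values listed at 0. Alox5, Alox5ap, Lta4h and Ptgs1 lie lower in both PT groups than in both BM groups, Ptgs2 lies higher, and Ltc4s is above 0 only in the 3 PT WT libraries.

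Alox5ap, which presents arachidonic acid to 5-lipoxygenase, was the most abundant of the 10 genes in all 4 groups by mean TPM. In BM WT it was at 540, 1448 and 1156 TPM, and in PT WT 215, 279 and 283 TPM. In MRP8-Bcl2 it was at 1171, 814 and 557 TPM in BM and at 115, 268 and 213 TPM in PT. The lowest BM library thus stood at nearly 2 times the highest PT library. The log2 change was -2.11 ± 0.51 (SE) in MRP8-Bcl2, which passed (adjusted p = 0.0112), and -1.91 ± 0.51 in WT, which narrowly missed (adjusted p = 0.0582). The MRP8-Bcl2 call was lost with median centring (-0.52, adjusted p = 0.608) and with quantile normalization (-1.93, adjusted p = 0.0601). Over both genotypes the change was -2.01 ± 0.36 (adjusted p = 0.00169). The call over both genotypes held without each library in turn but was lost with median centring, where the change was -1.32 (adjusted p = 0.0537). Alox5ap overlaps the antisense gene Gm19719, with which 9.45% of its 31-nt stretches are shared, and whether the counting used strand was not stated.

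Alox5, which encodes 5-lipoxygenase, followed the same order. In BM WT it was at 114, 203 and 151 TPM, and in PT WT 17.9, 19.7 and 54.3 TPM. In MRP8-Bcl2 it was at 292, 106 and 74.9 TPM in BM and at 40.3, 42.2 and 9.36 TPM in PT. The groups did not overlap in either genotype. PT differed from BM by -2.46 ± 0.70 on the log2 scale in WT (adjusted p = 0.0779), and by -2.34 ± 0.70 in MRP8-Bcl2, where it passed (adjusted p = 0.0298). The call in MRP8-Bcl2 was lost without library 9 (-1.66, adjusted p = 0.105) and without libraries 1 or 2 of BM Bcl2. It was also lost with median centring (-0.75, adjusted p = 0.549), with quantile normalization (-1.89, adjusted p = 0.0813), with the 100 most abundant genes left out (-1.90, adjusted p = 0.0837) and in a fit of these 2 groups alone (adjusted p = 0.0832). Over both genotypes the change was -2.40 ± 0.50 (adjusted p = 0.00438), and it passed without each library in turn.

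Lta4h, the hydrolase that makes leukotriene B4, had the largest change of the 10 genes over both genotypes. In BM WT it was at 183, 31.7 and 17.2 TPM, a wide spread, and in PT WT at 3.36, 2.40 and 5.15 TPM. In BM Bcl2 it was at 94.3, 157 and 164 TPM. In PT Bcl2 it was listed at 0 in libraries 7 and 9 and was at 12.7 TPM in library 8. All 6 PT libraries were below all 6 BM libraries. In WT the log2 change was -3.41 ± 1.00 (adjusted p = 0.0858). In MRP8-Bcl2 it was -5.82 ± 1.00 (adjusted p = 0.00233) and rested on 2 listed zeros. With 0.1 TPM in place of 1 TPM added before the logarithm it was -8.06 in MRP8-Bcl2, so its size depends on that constant, and without library 9 it was -5.19 (adjusted p = 0.00804). Over both genotypes the change was -4.62 ± 0.71 (adjusted p = 0.000602). This call held without each library in turn and under each scaling tried.

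Ltc4s, which encodes leukotriene C4 synthase, was listed at 0 in the 9 libraries of BM WT, BM Bcl2 and PT Bcl2 and was at 5.87, 3.01 and 1.39 TPM in PT WT. It was called higher in PT WT than in BM WT (adjusted p = 0.0327), and no fold is given against a group at 0. Its PT WT values correspond to about 10.5, 4.11 and 1.98 reads. In the PT Bcl2 libraries 3 reads would be worth 3.21 to 5.20 TPM, so the level of 2 of the 3 PT WT libraries was not detectable there at this depth. In BM WT 3 reads would be worth 4.14, 7.25 and 2.06 TPM, so the PT WT levels were largely below detection there too. The WT call was lost without any 1 of the 3 BM WT libraries and with median centring, quantile normalization (adjusted p = 0.0636), no trend in the variance, or only the WT groups fitted, and the call over both genotypes was lost in each of the 9 fits without 1 library in which the gene could be tested. The gene (chr11:50236461-50238616, minus strand, GRCm38) overlaps the antisense gene Gm26542, with which 19.5% of its 31-nt stretches are shared, and it was not stated whether the counting used strand. Ltc4s is also known from mast cells, and the summed TPM of the 8 mast cell markers was 34.0 to 700 in PT WT, 4.91 to 58.8 in PT Bcl2, 18.4 to 99.3 in BM WT and 10.5 to 22.2 in BM Bcl2. Of these, Cma1 was at 11.5, 12.3 and 49.4 TPM in PT WT, at 4.89, 12.5 and 0 TPM in PT Bcl2 and at 0 to 0.39 TPM in BM WT. Mcpt4 and Tpsb2 were likewise above 0 in all 3 PT WT libraries and at most 1.35 TPM in BM WT, while Fcer1a was at 0 in all 3 PT WT and in 2 of the 3 BM WT libraries. The highest mast cell sum was that of library 12, which had the lowest Ltc4s value of the 3, and the part of these markers in the result was not tested.

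**Figure D2:**
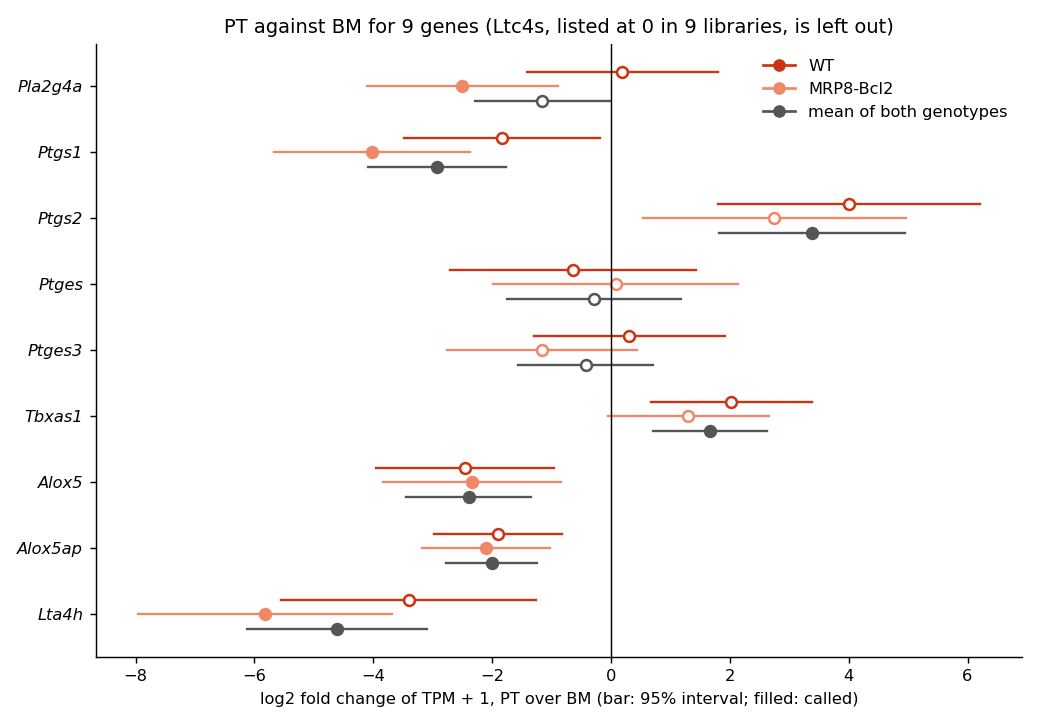
Log2 fold change of TPM + 1, PT over BM, for 9 genes in WT, in MRP8-Bcl2 and as the mean of both genotypes. Points are limma estimates, bars are 95% intervals and filled points passed the test. Lta4h, Ptgs1, Alox5 and Alox5ap lie to the left of 0 and Ptgs2 and Tbxas1 to the right in both genotypes. The interval of Tbxas1 in MRP8-Bcl2 spans 0.

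In the cyclooxygenase arm, the isozymes Ptgs1 and Ptgs2 went opposite ways. In BM WT, Ptgs1 was at 87.5, 25.8 and 16.6 TPM, and in PT WT 8.08, 7.42 and 11.1 TPM. In MRP8-Bcl2 it was at 43.7, 73.6 and 67.5 TPM in BM and at 0.304, 4.01 and 7.25 TPM in PT, where the value of library 7 corresponds to about 1 read. BM was above PT without overlap in both genotypes. The MRP8-Bcl2 change was -4.02 ± 0.77 on the log2 scale (adjusted p = 0.00412), a call kept without each library in turn and under each setting tried. In WT it was -1.83 ± 0.77 and did not pass (adjusted p = 0.249), and over both genotypes it was -2.93 ± 0.55 (adjusted p = 0.00231).

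Ptgs2 was low in BM, at 1.78, 2.54 and 8.20 TPM in WT and at 5.30, 4.15 and 0.618 TPM in MRP8-Bcl2. It was at 38.4, 18.5 and 491 TPM in PT WT and at 42.0, 26.1 and 12.7 TPM in PT Bcl2. Every PT library was above every BM library, and library 12 of PT WT stood more than 10 times above the other PT libraries. The WT change was 4.01 ± 1.04 on the log2 scale (adjusted p = 0.0518). That in MRP8-Bcl2 was 2.75 ± 1.04 (adjusted p = 0.0698), so both missed the threshold. Quantile normalization brought both past it, the WT change to 3.98 (adjusted p = 0.0334) and the other to 3.57 (adjusted p = 0.0293), and median centring brought only the MRP8-Bcl2 change past it (4.34, adjusted p = 0.0190). Without library 12 the WT change was 2.62 (adjusted p = 0.176), and the change in MRP8-Bcl2, then judged against a smaller spread, passed (adjusted p = 0.0259). Over both genotypes it was 3.38 ± 0.73 (adjusted p = 0.00575). That call held without each library in turn, with 2.69 without library 12 (adjusted p = 0.00823), and under each scaling tried.

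Tbxas1, thromboxane A synthase, had, in BM WT, 20.1, 12.2 and 10.1 TPM, and in PT WT 72.6, 67.2 and 40.3 TPM. It was at 9.44, 25.5 and 7.95 TPM in BM Bcl2 and at 54.6, 33.8 and 18.1 TPM in PT Bcl2. The WT groups did not overlap, while 1 BM Bcl2 library lay above the lowest PT Bcl2 library, which was library 9. On the log2 scale PT was above BM by 2.02 ± 0.64 in WT (adjusted p = 0.109), and by 1.298 ± 0.64 in MRP8-Bcl2 (adjusted p = 0.151), and neither passed. Over both genotypes it was 1.66 ± 0.45 (adjusted p = 0.0192), a call lost without library 3 or library 10. In MRP8-Bcl2 it passed with median centring (2.89, adjusted p = 0.0159) and with quantile normalization (2.22, adjusted p = 0.0356). Tbxas1 overlaps, on the other strand, the protein-coding gene Hipk2 and the antisense genes 1700025N23Rik and Gm42962. Of its 31-nt stretches 2.94% are shared with other genes, and whether the counting used strand was not stated. Platelets and macrophages are also known to make thromboxane. The summed TPM of the 7 megakaryocyte and platelet markers was 1.79 to 24.1 in BM and 13.3 to 526 in PT, with Pf4 at 9.69 to 521 TPM in all 6 PT libraries and at 0 in 5 of 6 BM libraries. Ppbp and Itga2b reached 62.2 and 80.5 TPM in library 12, and Gp9, Gp1bb and Gp6 were at 0 in all 6 PT and in at least 5 of 6 BM libraries. The 12 monocyte and macrophage markers summed to 91.6 to 107 TPM in PT WT and to 30.5 to 141 TPM in BM WT, with overlap. Of these, Adgre1 was at 11.7 to 14.7 TPM in PT WT and at 0 to 6.94 TPM in BM WT. Csf1r was at 29.1 to 48.2 and 12.1 to 26.9 TPM, and Vsig4 at 2.374 to 9.003 and 0 TPM. The other markers overlapped in WT, and Adgre1, Csf1r and Vsig4 overlapped in MRP8-Bcl2. The part of the platelet and macrophage markers was not tested.

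The RefSeq promoter windows of the genes with the clearest moves in the cyclooxygenase arm and of Lta4h are shown so that the higher genes (Ptgs2 and Tbxas1) can be read beside the lower ones (Ptgs1 and Lta4h). Each runs from 250 bases before the annotated start to 50 bases from it on (GRCm38.p6), 5′ to 3′. The Tbxas1 window lies inside the GENCODE record of the gene (chr6:38875404-39084585, plus strand), downstream of the start of that record. Capitals mark matches, on either strand, to 8 motifs: the TATA box (TATAAA), the C/EBP palindrome (TTGCGCAA), the CRE half-site (CGTCA), the E-box (CACGTG), the GC box (GGGCGG), the PU.1 core (GAGGAA), the AP-1 site (TGANTCA) and the NF-kB consensus. RefSeq windows were found for 9 of the 10 genes, all but Alox5ap.
Ptgs2 (chr1:150099781-150100080, plus strand): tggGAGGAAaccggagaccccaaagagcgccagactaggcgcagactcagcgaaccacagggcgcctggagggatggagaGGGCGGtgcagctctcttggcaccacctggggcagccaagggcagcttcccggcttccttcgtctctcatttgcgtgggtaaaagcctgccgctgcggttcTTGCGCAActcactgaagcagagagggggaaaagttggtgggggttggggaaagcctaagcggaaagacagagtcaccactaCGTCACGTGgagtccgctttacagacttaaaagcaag
Tbxas1 (chr6:38918736-38919035, plus strand): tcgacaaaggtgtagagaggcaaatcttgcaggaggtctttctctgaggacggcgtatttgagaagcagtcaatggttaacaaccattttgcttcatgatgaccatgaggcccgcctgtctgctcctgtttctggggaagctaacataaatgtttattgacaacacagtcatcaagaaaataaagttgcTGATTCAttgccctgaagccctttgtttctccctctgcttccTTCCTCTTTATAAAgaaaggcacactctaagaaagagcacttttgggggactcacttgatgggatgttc
Ptgs1 (chr2:36230176-36230475, plus strand): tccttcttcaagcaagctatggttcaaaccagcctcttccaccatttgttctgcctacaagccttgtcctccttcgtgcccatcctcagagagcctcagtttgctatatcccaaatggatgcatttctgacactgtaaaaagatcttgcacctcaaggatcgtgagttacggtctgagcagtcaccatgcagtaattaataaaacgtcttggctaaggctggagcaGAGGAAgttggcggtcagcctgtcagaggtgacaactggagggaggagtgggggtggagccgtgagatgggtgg
Lta4h (chr10:93453146-93453445, plus strand): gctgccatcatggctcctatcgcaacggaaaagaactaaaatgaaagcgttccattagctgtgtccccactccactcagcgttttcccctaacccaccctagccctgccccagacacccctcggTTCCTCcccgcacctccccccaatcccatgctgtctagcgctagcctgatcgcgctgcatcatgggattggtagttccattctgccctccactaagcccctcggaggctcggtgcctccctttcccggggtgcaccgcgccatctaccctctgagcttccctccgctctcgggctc

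The Ptgs2 window holds TTGCGCAA at -69, counted from the start site as base 1, a match found in 0.183% of 32851 mouse promoter windows and in no other window of the 10 genes. It also holds GGGCGG at -170 (35.7% of windows), GAGGAA at -247 (28.3%), and CGTCA at 14 (20.8%) overlapping CACGTG at 17 (7.15%). The Tbxas1 window holds TTCCTC, the other strand of GAGGAA, at -19, next to overlapping matches to the TATA box on both strands at -13 and -11 (13.6%), and TGATTCA, a form of the AP-1 site, at -61 (7.81%). The lower genes Ptgs1 and Lta4h each hold only the PU.1 core, at -24 and at -126. The window of Alox5, also lower in all 6 PT libraries and not printed here, holds GAGGAA at -136 and GGGCGG at -35. The PU.1 core was matched in genes that were higher and in genes that were lower, and the NF-kB consensus (8.46% of windows) among the members only in Ptges3. These matches describe letters, and no binding was measured.

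Pla2g4a, at the head of the pathway, was called lower in MRP8-Bcl2 and not in WT, and the difference between the genotypes, given further on, did not pass. In BM WT it was at 25.9, 26.5 and 13.8 TPM, and in PT WT 8.46, 71.8 and 22.5 TPM. It was at 30.3, 28.9 and 36.1 TPM in BM Bcl2 and at 10.8, 2.54 and 3.58 TPM in PT Bcl2. The MRP8-Bcl2 groups did not overlap, while PT WT spanned the whole range of BM WT. PT differed from BM by -2.50 ± 0.75 on the log2 scale in MRP8-Bcl2 (adjusted p = 0.0302) and 0.19 ± 0.75 in WT (adjusted p = 0.932). The MRP8-Bcl2 call was lost without library 9 (-2.34, adjusted p = 0.0689), without library 8 and without any 1 BM Bcl2 library, and it was -0.91 (adjusted p = 0.418) with median centring and -1.41 (adjusted p = 0.201) with quantile normalization. Pla2g4a (chr1:149829618-149961290, minus strand) and Ptgs2 (chr1:150100031-150108227, plus strand) lie 138740 bases apart on GRCm38. Of the 3 annotated genes between them, none is protein-coding. In PT WT the highest Pla2g4a value was in library 11 and the highest Ptgs2 value in library 12. In PT Bcl2 both genes were highest in library 7, at 10.8 and 42.0 TPM. Whether their values run together was not tested.

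Neither Ptges nor Ptges3, both prostaglandin E synthases, was called in any comparison. Ptges, the inducible microsomal enzyme, had, in BM WT, 10.3, 5.67 and 21.5 TPM, and in PT WT 5.59, 4.92 and 10.4 TPM. In MRP8-Bcl2 it was at 20.3, 3.51 and 2.60 TPM in BM and at 7.01, 0.899 and 25.6 TPM in PT. Its libraries differed more within groups than between them. The 95% interval of its log2 change was -2.71 to 1.43 in WT and -1.99 to 2.14 in MRP8-Bcl2, so changes of several fold either way cannot be told from none. Ptges3, the cytosolic enzyme, also known as the Hsp90 co-chaperone p23, ranged from 24.3 to 85.2 TPM in BM WT and from 49.3 to 65.7 TPM in PT WT. In MRP8-Bcl2 it ranged from 22.8 to 151 TPM in BM and from 15.4 to 69.5 TPM in PT. Of its 31-nt stretches 20.9% are shared with other genes, among them the pseudogene Ptges3-ps, so its level is uncertain.

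Shares and ranks within a library do not depend on a scaling factor between libraries. The summed TPM of the 10 genes was 1061 to 1806 in BM and 307 to 969 in PT. Alox5, Alox5ap and Lta4h together took 78.4 to 93.3% of it in BM WT, 74.98 to 92.2% in BM Bcl2, 35.4 to 55.8% in PT WT and 45.7 to 79.6% in PT Bcl2. Ptgs2 took 0.0583 to 0.578% in BM and 3.42 to 50.7% in PT, without overlap. Among the 13456 tested genes of a library, Ptgs2 ranked at the 14.1 to 63.3 percentile in BM and at the 74.7 to 98.5 percentile in PT. Ptgs1 ranked at 74.5 to 93.7 in BM and at 35.2 to 64.5 in PT, and Tbxas1 at 41.4 to 72.1 and at 79.9 to 92.5. Alox5ap stayed near the top, at 98.8 to 99.7 in BM and 91.9 to 98.7 in PT.

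**Figure D3:**
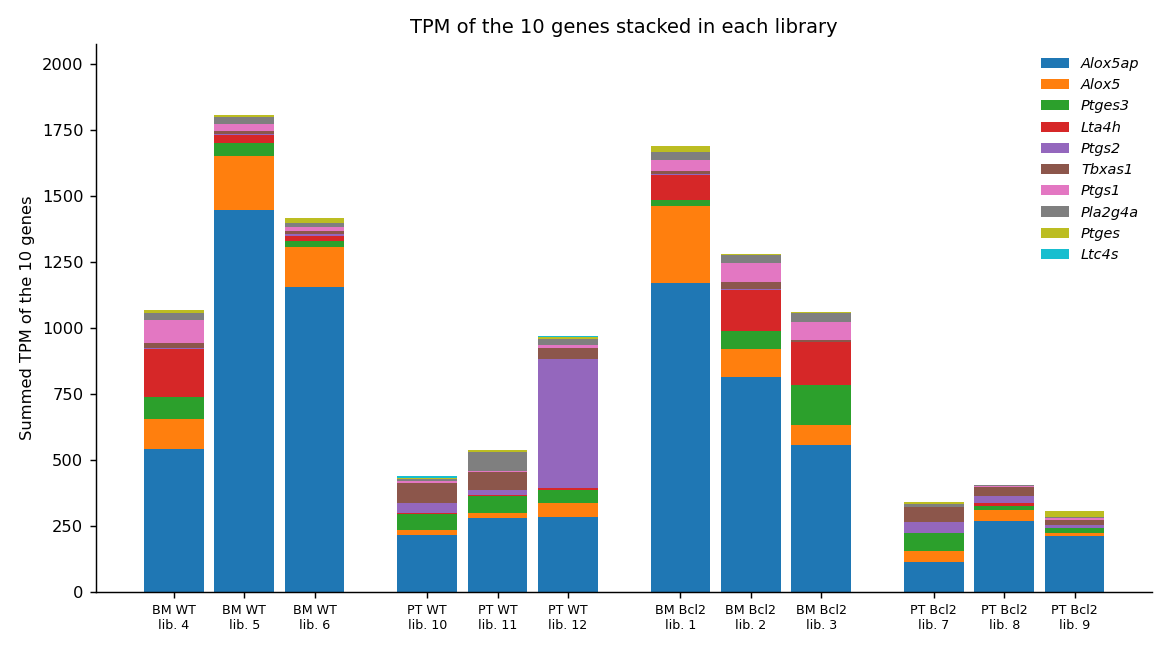
TPM of the 10 genes stacked in each library, in order of mean TPM from the bottom. Each bar is 1 library. The bars of BM reach 1061 to 1806 TPM and those of PT 307 to 969 TPM, Alox5ap (lowest segment) is the main part of most bars, and library 12 of PT WT has the largest Ptgs2 segment.

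The order of the genes by mean TPM was led in BM WT by Alox5ap (1048 ± 464, SD, n = 3), Alox5 (156 ± 44.5), Lta4h (77.2 ± 91.7) and Ptges3 (53.4 ± 30.5). Lta4h overlapped both Alox5 and Ptges3 there, while Alox5 (lowest 114 TPM) lay above Ptges3 (highest 85.2 TPM). In BM Bcl2 the order was led by Alox5ap (847 ± 308), Alox5 (158 ± 117), Lta4h (138 ± 38.2) and Ptges3 (80.4 ± 64.9), the last 3 overlapping. In PT WT the order was Alox5ap (259 ± 38.0), Ptgs2 (183 ± 267), Tbxas1 (60.0 ± 17.3) and Ptges3 (59.4 ± 8.85), and each neighbouring pair overlapped. Ptgs2 held its place there through library 12. In PT Bcl2 it was Alox5ap (198 ± 77.5), Tbxas1 (35.5 ± 18.3), Ptges3 (34.3 ± 30.5) and Alox5 (30.6 ± 18.4), with Alox5ap above the rest without overlap. Lta4h thus moved from among the first 3 in both BM groups to a mean of 3.64 ± 1.39 TPM in PT WT and 4.22 ± 7.31 TPM in PT Bcl2.

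The ratio of the cyclooxygenases separated the compartments in every library. Ptgs2 over Ptgs1 was 0.0203, 0.0983 and 0.493 in BM WT and 0.00916, 0.0564 and 0.121 in BM Bcl2. It was 2.49, 4.75 and 44.3 in PT WT and 1.75, 6.52 and 138 in PT Bcl2, the last on about 1 read of Ptgs1. All 6 BM libraries thus had more Ptgs1 than Ptgs2 and all 6 PT libraries more Ptgs2 than Ptgs1, with or without library 9. Tbxas1 over Ptgs1 was 0.118 to 0.607 in BM and 2.49 to 180 in PT. The ratio of Alox5ap to Alox5, the partners in leukotriene A4 synthesis, was 4.01 to 7.68 in BM and 2.84 to 22.7 in PT, with overlap. These ratios were chosen after the values were seen and are given without a test.

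**Figure D4:**
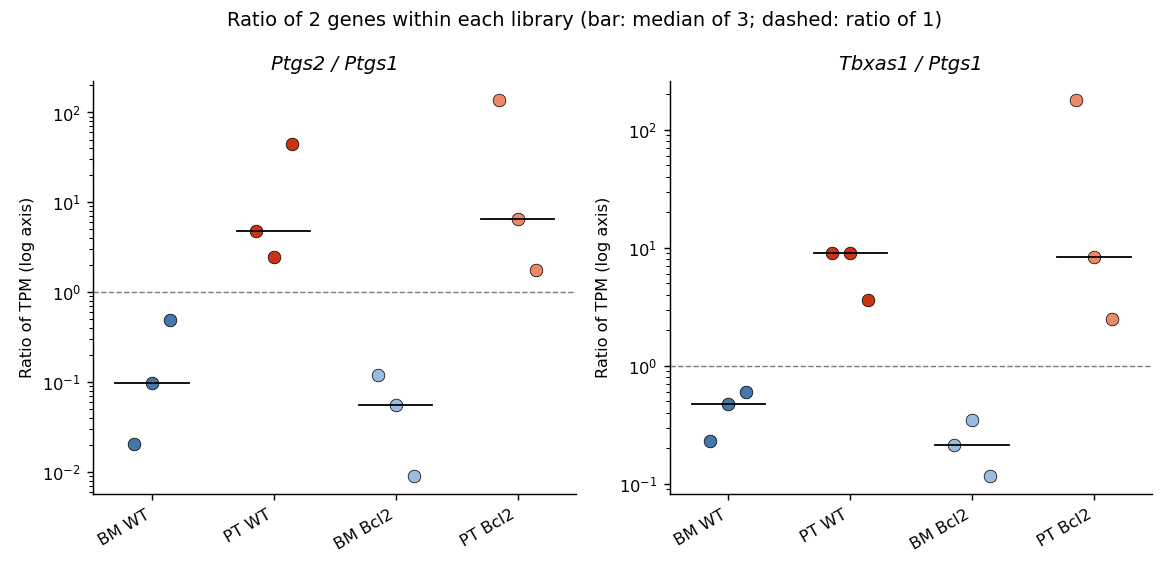
Ratio of TPM within each library (log axis) for Ptgs2 over Ptgs1 and Tbxas1 over Ptgs1, by group. Points are libraries, bars are medians of 3 and the dashed line is a ratio of 1. All BM libraries lie below 1 and all PT libraries above it in both panels.

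No gene of the 10 was called different between the genotypes. For the difference between MRP8-Bcl2 and WT in the PT to BM change, none of the 10 had an adjusted p under 0.05, against 0.0149% of all tested genes. An unadjusted p under 0.05 was found for 2 of the 10, Pla2g4a and Ltc4s, and for 2279 of the 13456 tested genes. The estimate for Pla2g4a was -2.69 on the log2 scale (95% interval -4.96 to -0.42, adjusted p = 0.258). For Ptgs2 it was -1.26 (-4.38 to 1.86), for Ptgs1 -2.18 (-4.52 to 0.15), for Lta4h -2.42 (-5.44 to 0.61), for Alox5 0.12 (-1.99 to 2.23) and for Alox5ap -0.20 (-1.73 to 1.32). The intervals are wide, so the genotypes are not shown to act alike. MRP8-Bcl2 against WT gave no call among the 10 in BM (0.0223% of all genes) or in PT (0.0297%). Without library 9 the PT comparison called 17 of 13309 genes, against 4 of 13456 with it, and again none of the 10. At an unadjusted p under 0.05 none of the 10 differed in BM, against 991 of the 13456 tested genes. In PT Pla2g4a and Ltc4s did, against 1709 of the 13456. Ltc4s passed the filter only through PT WT, so nothing is read from it in these counts. Pla2g4a was 2.14 ± 0.75 lower on the log2 scale in PT Bcl2 than in PT WT (adjusted p = 0.297).

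Around these 10 genes, 55 others of eicosanoid biology were listed (phospholipases, other lipoxygenases, further synthases, transport and breakdown enzymes, receptors and partner proteins), of which 35 passed the filter. In WT 1 of the 35 was called lower, against 1.22% of all tested genes, and none higher, against 1.59%. In MRP8-Bcl2 7 were lower, a share near the 19.1% of all tested genes, and none higher, against 2.31%. The MRP8-Bcl2 split turned with scaling, to 4 higher and none lower with median centring and to 2 lower and none higher with quantile normalization, where the 2 were Mgst2 and Akr1b3. The median log2 change of the 35 was 0.21 in WT and -1.19 in MRP8-Bcl2, close to the medians over all tested genes. Of the 5 synthases tested 1 was called lower in WT, against 1.22% of all tested genes, and 4 in MRP8-Bcl2, against 19.1%. The 4 fell to Mgst2 and Akr1b3 with quantile normalization and to none with median centring. No gene of the phospholipase or lipoxygenase groups was called. Mgst1, a microsomal glutathione transferase of the family of Ltc4s and Alox5ap, averaged 244 ± 139 TPM in WT marrow and 20.1 ± 13.2 TPM in PT WT (SD, n = 3 each), and 122 ± 22.5 TPM in BM Bcl2 and 31.8 ± 25.7 TPM in PT Bcl2. It was called in WT (log2 change -3.63, adjusted p = 0.0129) and also in MRP8-Bcl2 (-2.20, adjusted p = 0.0380). The WT call of Mgst1 held under both other scalings but was lost without library 5, 10 or 11, and its MRP8-Bcl2 call was lost under both scalings. Mgst2, a relative that can also make leukotriene C4, averaged 73.7 ± 38.6 TPM in WT marrow and 13.7 ± 10.5 TPM in PT WT (log2 change -2.45, adjusted p = 0.0518).

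In MRP8-Bcl2, Mgst2 was at 65.7 ± 19.2 TPM in BM and 4.42 ± 0.511 in PT (log2 change -3.58, adjusted p = 0.00258). Akr1b3, an aldose reductase with prostaglandin F synthase activity, was at 53.1 ± 33.4 and 3.13 ± 5.11 TPM (-4.31, adjusted p = 0.00746). Ptges2, a membrane-associated prostaglandin E synthase, averaged 3.61 ± 1.68 TPM in BM Bcl2, and each PT Bcl2 library lists it at 0 (adjusted p = 0.0391). Outside the synthases, the exporter Abcc4 was called lower (-3.82, adjusted p = 0.0133), as were the prostaglandin E2 receptor Ptger1 (-3.02, adjusted p = 0.0227) and Cotl1, a protein that binds 5-lipoxygenase (-2.60, adjusted p = 0.0137). Ltb4r1, the main leukotriene B4 receptor, averaged 34.7 ± 6.35 TPM in WT marrow and 11.96 ± 8.17 TPM in PT WT. It averaged 44.8 ± 14.95 TPM in BM Bcl2 and 30.3 ± 30.6 TPM in PT Bcl2 and was not called in WT (adjusted p = 0.308) or MRP8-Bcl2 (adjusted p = 0.354). The prostaglandin E2 receptor Ptger2 averaged 3.44 ± 2.58 TPM in WT marrow and 27.6 ± 14.3 TPM in PT WT (log2 change 2.71, adjusted p = 0.0828), and 6.91 ± 5.99 TPM in BM Bcl2 and 11.2 ± 6.09 TPM in PT Bcl2 (0.74, adjusted p = 0.518). Its WT change passed with quantile normalization (adjusted p = 0.0487) and its MRP8-Bcl2 change with median centring (2.33, adjusted p = 0.0375).

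Over the 12 libraries, the tested genes whose log2 values ran most like those of Ptgs2 were Egr1 (Pearson r = 0.963), Gm5380 (0.962) and Vax2os (0.948). Egr1 encodes an immediate early transcription factor and was, like Ptgs2, highest in library 12, at 1231 TPM, and at 18.8 to 55.4 TPM in the other PT libraries and 1.73 to 24.1 TPM in BM. Those most like Alox5 were S100a8 (0.939), S100a9 (0.932) and Mcemp1 (0.929). S100a8 and S100a9 encode the subunits of calprotectin and were also the main part of the neutrophil marker sum. The points of each correlation share the libraries, their scaling and the difference between BM and PT, so the values describe likeness only.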

How the data were processed

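RNA of sorted neutrophils was sequenced in 12 libraries, 3 per group, assigned by the deposited column and marker-table names. The authors deposited log2(TPM + 1) per gene and library, made with AltAnalyze, and group averages as TPM. The aligner and strand setting were not given in the sources used here. The authors' own fold changes, p-values and marker scores were not used, nor were 2 columns of per-sample values that match no labelled sample. TPM was recovered from log2 and fitted in limma 3.58.1 under R 4.3.3 (functions lmFit, contrasts.fit and eBayes with trend), after testing on simulated data. Genes needed 1 TPM in 3 of 12 libraries. Calls were made at a 2-fold change with an adjusted p (Benjamini-Hochberg) under 0.05, and for the interaction the adjusted p alone. The value of 1 read was estimated on 5033 single-transcript genes, where 71.0 to 78.6% of low values lay within 0.15 of a whole read (30% by chance). Annotation was GENCODE M21 (GRCm38) and promoters were from RefSeq (GRCm38.p6), since the authors' build was not given in the sources used here. Named genes were the 10 members, wider-list genes called in either genotype (up to 12, Ltb4r1 and Ptger2 being added after their values were seen), and the 3 genes most like Ptgs2 and Alox5. Of the wider list, Alox15 was also named, without being called in either genotype. The members and lists were chosen with earlier results of these data known. Alternatives were other pseudocounts, filters, scalings, thresholds and fits, fits without each library and, added after the data were seen, without libraries 9 and 12 together.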

Additional observations from a re-analysis of the deposited data

How the results depend on the processing

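No paired analysis was possible because the deposited columns carry no mouse or replicate number, although BM and PT libraries may share mice. In WT the calls over all genes numbered 378, 309 with median centring, 497 after quantile normalization, 179 with only the groups compared, and 90 to 523 without 1 library in turn (90 without library 10, 114 without library 4). In MRP8-Bcl2 the median log2 change of all genes was -1.02, against 0.57 with median centring and -0.0001 after quantile normalization. The members called lower there numbered 5, and 2 with median centring, quantile normalization or the top 100 genes left out, and 3 without libraries 9 and 12. The members called higher there numbered 0, and 2 with median centring or quantile normalization, and 1 with the top 100 genes left out, an adjusted p under 0.1, or libraries 9 and 12 left out. In WT the members called higher numbered 1, and 0 with median centring, only the groups compared, no trend, or libraries 9 and 12 left out, and 2 at an adjusted p under 0.1. The members called lower in WT numbered 0, and 1 with a filter of 5 TPM, quantile normalization, or libraries 9 and 12 left out, and 3 at an adjusted p under 0.1. Without 1 library in turn, the members called higher in WT numbered 0 to 2, those lower in WT 0 to 1, those higher in MRP8-Bcl2 0 to 1, those lower there 3 to 5, and those higher over both genotypes 1 to 2 (1 without library 3 or 10), against 3 with all libraries. Of the wider list, 3 to 8 genes were called lower in MRP8-Bcl2 without 1 library in turn, with 3 without library 3 and 4 without library 2. Over all genes the calls in MRP8-Bcl2 were 311 higher and 2567 lower, 1636 and 467 with median centring, and 678 and 779 after quantile normalization.

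Values not called changed sign as follows. With median centring, Pla2g4a in WT was -0.0262, Ptges3 in MRP8-Bcl2 0.43, Ltb4r1 in MRP8-Bcl2 0.49, and over both genotypes Ptges 0.40 and Ptges3 0.26. The interaction was 0.55 for Ptgs2, 0.33 for Ptges3, 1.08 for Tbxas1 and 1.60 for Alox5ap. After quantile normalization the interaction was 0.30 for Tbxas1 and 0.046 for Alox5ap, and Ptges over both genotypes was 0.33. Pla2g4a in WT was -0.0131 with the top 100 genes left out, and Ptges in MRP8-Bcl2 was -0.041 with 0.1 TPM added. Without libraries 9 and 12, Ptges in MRP8-Bcl2 was -0.85 and the interaction of Ptgs2 0.57. Without 1 library in turn, sign changes of uncalled values ranged as follows. Pla2g4a in WT was -0.57 to 0.90 and Ptges3 in WT -0.16 to 0.73. Ptges was -0.85 to 1.06 in MRP8-Bcl2 and -0.74 to 0.21 over both genotypes. The interaction was -2.21 to 0.13 for Ptgs2, -0.21 to 1.70 for Ptges, -0.29 to 0.80 for Alox5 and -0.49 to 0.22 for Alox5ap. Abcc4 in WT ran from -1.69 to 0.024 without 1 library in turn. The causes were not tested. Depth limited Ltc4s most, at 1.98 to 10.5 estimated reads where it was above 0.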

Other observations

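The BM libraries differed among themselves, an observation made after the values were seen. Libraries 2, 3 and 4 had Csf3r at 132, 155 and 183 TPM, Lta4h at 157, 164 and 183 TPM and Ptgs1 at 73.6, 67.5 and 87.5 TPM. Libraries 1, 5 and 6 had Csf3r at 816, 892 and 1038 TPM, Lta4h at 94.3, 31.7 and 17.2 TPM and Ptgs1 at 43.7, 25.8 and 16.6 TPM. Csf3r encodes the receptor for granulocyte colony-stimulating factor. Libraries 2, 3 and 4, with less Csf3r, thus had more Lta4h and more Ptgs1 than libraries 1, 5 and 6. Within BM WT this sets library 4 alone against libraries 5 and 6, and within BM Bcl2 library 1 alone against libraries 2 and 3. Among libraries 2, 3 and 4 themselves, Lta4h rose with Csf3r. Between libraries 2, 3 and 4 and libraries 1, 5 and 6, other neutrophil markers split as Csf3r did. In that order, Cxcr2 was at 212 to 398.5 TPM against 1493 to 1864 TPM. Mmp8 was at 118 to 279 against 1721 to 3403 TPM, and Retnlg at 342.5 to 953 against 9407 to 20200 TPM. Mmp9, Ly6g, Itgam and S100a9 followed the same split, while S100a8 overlapped. Lta4h and Ptgs1 were picked after the values were seen, and how many of all tested genes follow the split was not counted. Alox15, the leukocyte 12/15-lipoxygenase, was at 19.3 and 20.4 TPM in libraries 10 and 11 of PT WT, listed at 0 in library 12, and at 0 to 5.55 TPM in the other groups. It was not called in WT (log2 change 2.19, adjusted p = 0.364) or in MRP8-Bcl2 (-0.22, adjusted p = 0.907). The macrophage marker Timd4 was at 7.40 and 11.5 TPM in libraries 10 and 11 and at 2.51 TPM in library 12. Timd4 was also at 6.87 TPM in library 9 and at 5.27 TPM in library 4. In libraries 10, 11 and 12, Fcgr1 (7.60, 5.73 and 0.276 TPM) and C1qc (7.51, 4.96 and 2.37 TPM) were also lowest in library 12. Adgre1 (13.97, 11.72 and 14.74 TPM), Csf1r (31.49, 29.09 and 48.16 TPM) and Vsig4 (2.374, 7.126 and 9.003 TPM) were instead highest in library 12. Whether macrophages had a part in these values was not tested.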
